A study of Mus musculus with 6 samples.

Results

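The genes described here are 40 MYC and ribosome biogenesis genes, picked by name out of 25239 genes listed in a count table of 6 RNA-seq libraries. They comprise the transcription factor genes Myc and Mycn and 38 genes for ribosome biogenesis. The 38 were sorted by role into 2 abundant nucleolar proteins, 3 core proteins of box C/D snoRNPs, 4 core proteins of box H/ACA snoRNPs, 1 snoRNP chaperone, 5 RNA polymerase I genes, 10 genes for small subunit assembly, 10 for large subunit assembly and 3 other nucleolar regulators. All 40 had enough counts to be tested. They are listed by name rather than by a threshold on a measured value, but the list was drawn up with earlier results of these data known.

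The libraries came from mouse thyroid organoids grown from 1 embryonic stem cell line, derived from G4 RosaLuc. It holds the construct TRE-Nkx2-1-Pax8, through which doxycycline induces Nkx2-1 and Pax8, and the construct bTg-NES-BrafV637E-ERT2, which encodes the oncogenic kinase BrafV637E fused to ERT2. The fusion is expressed from a bovine thyroglobulin promoter, and its kinase is switched on by 4-hydroxytamoxifen (4OHT), so it was present in every group, controls included. All groups received doxycycline at 1 µg/ml for 5 days and then 8-Br-cAMP for 2 weeks of maturation. They were enriched for follicles and collected at day 31. The sample titles list cAMP for every group, and the study's methods continue it during the later treatments. There were 2 libraries per group. The cAMP group was never given 4OHT, the 4OHT group received 1 µM for 5 days, and the PD+LY group received 1 µM 4OHT with 250 nM PD0325901 (a MEK inhibitor) and 5 µM LY204002 (a PI3K inhibitor, spelled as in the labels) for 3 days. The study's methods add the inhibitors after days of 4OHT alone, so the length of 4OHT exposure may differ between the 4OHT and PD+LY groups. The line is a selected clone, each library pools several wells, and the organoids keep cells other than thyroid cells. Nothing in the labels ties the libraries of a group to separate differentiations, so the p-values measure the spread between these samples, which may be technical.

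MYC proteins are transcription factors that bind DNA together with MAX, often at the sequence CACGTG called the E-box, and genes for making ribosomes are among their best known targets. Ribosome production begins in the nucleolus, where RNA polymerase I copies the ribosomal RNA genes, snoRNPs modify the RNA, and assembly factors fold and cut it into the small and large subunits. ERK signalling is known to raise Myc transcription and to slow the breakdown of MYC protein, and MYCN is the family member best known from embryonic and neural cells.

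The E-box letters were looked up in the RefSeq promoter sequences (GRCm38.p6, 250 bases before to 50 after each start), because they tie the factors to the genes they are known to act on. Of the 40 members, 34 had a promoter entry, and 7 of these (20.6%) held CACGTG, which reads the same on both strands. The share was 11.4% of the tested genes with a promoter entry and 8.09% of all genes with an entry. Only Nop2 and Rrn3 held it before the start (5.88% of members, against 9.69% of tested genes). In the other 5, Utp20, Pes1, Mybbp1a, Tsr1 and Wdr43, it lay after the start. The windows before the start are printed 5′ to 3′ on the gene's strand, with the E-box in capitals, for Nop2 (chr6:125131783-125131868, plus strand) and for Rrn3 (chr16:13780449-13780696, plus strand). The short sites after the start are printed for Pes1 (chr11:3963967-3963992, plus strand), Tsr1 (chr11:74898094-74898119, plus strand), Wdr43 (chr17:71616222-71616247, plus strand), Mybbp1a (chr11:72441357-72441376, plus strand) and Utp20 (chr10:88826765-88826787, minus strand).
Nop2: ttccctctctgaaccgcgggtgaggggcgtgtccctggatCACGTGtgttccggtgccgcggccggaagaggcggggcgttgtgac
Rrn3: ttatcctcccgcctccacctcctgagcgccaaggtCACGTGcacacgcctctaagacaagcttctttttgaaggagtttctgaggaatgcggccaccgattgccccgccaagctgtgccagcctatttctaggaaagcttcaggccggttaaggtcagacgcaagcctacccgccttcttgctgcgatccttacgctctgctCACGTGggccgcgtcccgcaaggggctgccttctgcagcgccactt
Pes1: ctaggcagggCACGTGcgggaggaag
Tsr1: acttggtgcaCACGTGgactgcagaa
Wdr43: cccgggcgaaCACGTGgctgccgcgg
Mybbp1a: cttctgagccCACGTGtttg
Utp20: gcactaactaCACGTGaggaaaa
Nop2 has its E-box 60 bases before the start, and Rrn3 has E-boxes 215 and 48 bases before it. A match is a description of the letters and not a binding site measured here.

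The libraries held 14898409 to 20637959 counts, and the members together took between 0.941% and 1.06% of the counts of a library. Levels are given as CPM, the counts of a gene per fixed number of library counts after scaling with TMM factors, which lay between 0.990 and 1.007, and as mean ± SD of the 2 libraries of a group. Each comparison was tested with edgeR's quasi-likelihood test in a single fit of the 6 libraries, and p-values were adjusted (Benjamini-Hochberg) over the 15256 genes tested. A gene is called when its adjusted p is under 0.05 and passes both thresholds when it also changes at least 2-fold. In these bulk libraries, fewer cells of a type and less RNA per cell cannot be told apart.

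Myc was weakly expressed and fell with the inhibitors, whereas Mycn was much more abundant and rose. Myc (chromosome 15, 61985391 to 61990374, plus strand) had 84 and 126 counts in the cAMP libraries, 67 and 106 in the 4OHT libraries, and 44 and 59 in the PD+LY libraries. In CPM these were 5.28 and 6.14, 4.47 and 5.81, and 2.24 and 2.87. The cAMP and 4OHT libraries overlapped, and both PD+LY libraries lay below all the others. Myc was 2.01-fold lower in PD+LY than in 4OHT (log2 fold change -1.01, SE 0.27, 95% interval -1.60 to -0.42, edgeR adjusted p = 0.0190). Against cAMP it was 2.23-fold lower (log2 fold change -1.16, SE 0.27, adjusted p = 0.00766), and it passed both thresholds in both comparisons. With 4OHT alone its log2 fold change was -0.15 (95% interval -0.71 to 0.41, adjusted p = 0.771), an interval that includes a 1.32-fold rise and a 1.63-fold fall.

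The fall of Myc against 4OHT rested on few counts and on single libraries. Its call was lost without 4OHT replicate 2 (log2 fold change -0.80, adjusted p = 0.186) and without PD+LY replicate 1 (-0.85, adjusted p = 0.0704), while its adjusted p ranged from 0.0178 to 0.186 over all libraries left out in turn. Against cAMP the call was lost without cAMP replicate 2 (-1.04, adjusted p = 0.0566, range over libraries left out 0.00995 to 0.0566), and the log2 change without PD+LY replicate 1 was -0.995.

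Mycn (chromosome 12, 12936093 to 12941914, minus strand) had 1417 and 2098 counts in cAMP, 1217 and 1577 in 4OHT, and 2510 and 3381 in PD+LY. In CPM the levels were 89.1 and 102.2 in cAMP, 81.2 and 86.5 in 4OHT, and 127.8 and 164.4 in PD+LY. Both PD+LY libraries lay above all the others, and both 4OHT libraries lay below both cAMP libraries. Mycn was 1.74-fold higher in PD+LY than in 4OHT (log2 fold change 0.80, SE 0.13, adjusted p = 0.00101) and 1.53-fold higher than in cAMP (0.61, SE 0.13, adjusted p = 0.00412). It was called in both comparisons whichever library was left out, with adjusted p-values from 0.000079 to 0.0200 against 4OHT and from 0.000201 to 0.0372 against cAMP. The step from cAMP to 4OHT, a log2 fold change of -0.19 (95% interval -0.47 to 0.085), did not pass the test (adjusted p = 0.392).

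**Figure D1:**
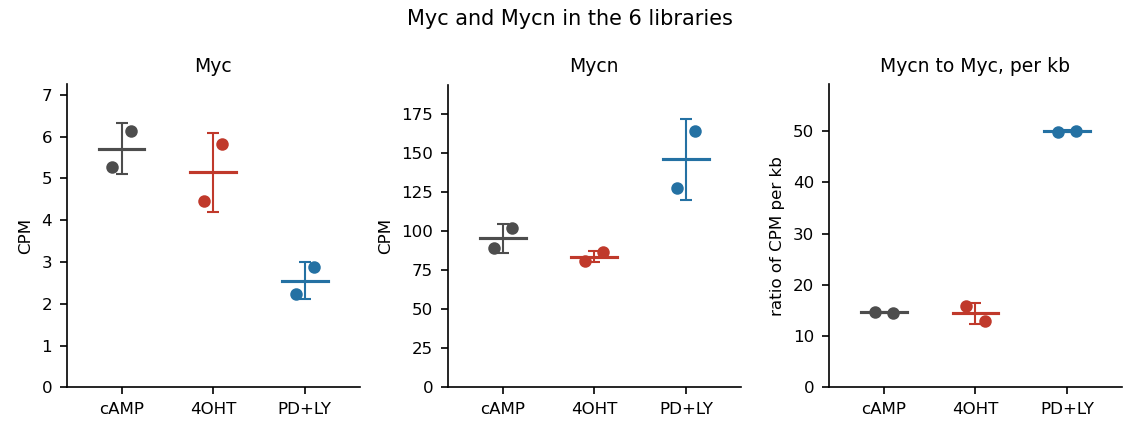
Myc and Mycn in CPM and the ratio of Mycn to Myc in CPM per kb of transcript, by group. Points are libraries, the line is the mean and the bars are ± SD (n = 2); Myc is lowest and Mycn highest in both PD+LY libraries, where the ratio is near 50.

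Divided by the length of the longest annotated coding transcript (2338 bases for Myc, 2674 for Mycn), Mycn stood 14.7 and 14.6 times above Myc in the cAMP libraries and 15.9 and 13.0 times above it in the 4OHT libraries. In the PD+LY libraries the ratio was 49.9 and 50.1. The plot of both genes by library shows the opposite movement of the pair. Among the 40 members, Myc had the lowest level per kb in cAMP (2.44 CPM per kb) and Mycn ranked 25 (35.8 CPM per kb), while Npm1 had the highest (1713 CPM per kb). The transcript model sets the scale of such levels, which are used here for their order only.

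Markers of cells that are known for Mycn were read beside it. The summed share of 10 pluripotency markers was 0.406% and 0.401% of counts in cAMP, 0.443% and 0.423% in 4OHT, and 0.425% and 0.451% in PD+LY, and all 10 were detected in every library. When PD+LY was set against 4OHT, Nanog and Sox2 of these 10 rose while Tdgf1, Utf1 and Lin28a fell. The 7 neural progenitor markers summed to between 0.004% and 0.007% of counts, and in the same comparison Pax6 and Nes rose and Hes5 fell. Their median log2 level relative to the cAMP mean was -0.78 and -0.69 in 4OHT and -0.76 and -0.81 in PD+LY. In PD+LY against cAMP, DESeq2 called 2 of 6 tested neural markers up and 3 down. It called 4 of the 10 pluripotency markers up and 3 down, beside 11.1% and 12.3% of all tested genes. The part of these markers in the change of Mycn was not tested.

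Few members were called when the oncogenic kinase was switched on. The summed share of 10 ERK response genes was lower in 4OHT (0.061% and 0.062% of counts) than in cAMP (0.082% and 0.078%). Their median log2 level relative to the cAMP mean was only 0.003 and -0.08 in 4OHT. At an unadjusted p under 0.05 with edgeR, 4 of these 10 rose and 4 fell. The study itself reported more phosphorylated ERK on blots with 4OHT, and a modest increase of an ERK score from its own gene list. In 4OHT against cAMP, edgeR called 0 of the 40 members as higher and 1 as lower, Npm1, against 4.04% of all tested genes that rose and 4.35% that fell. At an unadjusted p under 0.05, 1 member was higher and 6 were lower (11.7% and 12.2% of all tested genes), and DESeq2 called 1 (Rrp9) as higher and 1 as lower (4.35% and 4.41% of all tested genes). No member passed both thresholds (2.67% of tested genes). The median log2 fold change of the members was -0.09, against -0.002 for all tested genes, and 31 of 40 were below 0 compared with 7671 of 15256 tested genes. Both 4OHT libraries lay below both cAMP libraries for 20 members and above them for 4, while the count in all tested genes was 4483 and 4445 (8.39% of tested genes were called in either direction).

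Of the 2 abundant nucleolar proteins, Npm1 was called after 4OHT and Ncl was not. Npm1, nucleophosmin, a chaperone of the outer nucleolus that binds assembling ribosomes, had 2868 and 2728 CPM in cAMP, 2097 and 2201 in 4OHT, and 2314 and 2180 in PD+LY. It fell by 23.2% in 4OHT (log2 fold change -0.38, SE 0.08, adjusted p = 0.0111) and stayed 19.7% below cAMP in PD+LY (-0.32, SE 0.08, adjusted p = 0.00997). The cAMP libraries were above all 4 others. The first call was lost without cAMP replicate 1, 4OHT replicate 1 or 4OHT replicate 2, although the log2 change stayed between -0.41 and -0.34 (adjusted p 0.00164 to 0.155), and the call against cAMP in PD+LY was lost without cAMP replicate 1 (adjusted p = 0.0829, range over libraries left out 0.00410 to 0.0829).

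Ncl, nucleolin, which binds nascent ribosomal RNA, measured 1958 and 1978 CPM in cAMP, 1657 and 1705 in 4OHT, and 1864 and 2019 in PD+LY. The 4OHT libraries were the lowest, but neither the change with 4OHT (log2 fold change -0.23, adjusted p = 0.0926) nor the change with inhibitors (0.21, adjusted p = 0.0713) passed the test. Npm1 and Ncl together took 0.478% and 0.470% of counts in cAMP, 0.378% and 0.390% in 4OHT, and 0.420% and 0.418% in PD+LY. The other 36 ribosome biogenesis members summed to 0.574% and 0.582%, 0.564% and 0.542%, and 0.524% and 0.577%, so most of the drop in the summed level of the set after 4OHT lay in these 2 genes.

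With MEK and PI3K inhibition on top of 4OHT, no call was made among the 38 ribosome biogenesis genes. Relative to 4OHT, 1 of 40 members rose (Mycn) and 1 fell (Myc), while 10.7% of all tested genes rose and 12.1% fell. Myc alone passed both thresholds, which 7.26% of tested genes did. The median was 0.05 for the 40 members and 0.008 for all tested genes. The 38 other members lay between -0.28 (Utp20) and 0.31 (Polr1b), with a median standard error of 0.10, and 8 of them had an unadjusted p under 0.05, 4 in each direction, as did 36.8% of all tested genes. DESeq2 called none of the 38 either. Both PD+LY libraries lay above both 4OHT libraries for 14 members and below them for 10, while the count over all tested genes was 4745 and 4755 (22.7% were called in either direction). The 95% intervals of these 38 reached no further than a 1.42-fold fall (Utp20) and a 1.51-fold rise (Polr1e).

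The counts of called members depended on which PD+LY library was used. PD+LY replicate 2 was higher than replicate 1 for 31 of the 38 ribosome biogenesis genes, with a median log2 difference of 0.15, compared with 0.02 between the cAMP libraries and -0.04 between the 4OHT libraries. The median of the 38 relative to the cAMP mean was -0.10 in PD+LY replicate 1 and 0.02 in replicate 2. Without PD+LY replicate 1, 7 of 40 members rose against 4OHT, beside 10.1% of all genes tested in that fit, and without replicate 2, 5 of 40 fell, beside 13.3%. Fbl, Nop2, Nop16, Nolc1, Ncl and Polr1b were among those that rose with Mycn in the first case, and Nop56, Nop14, Rrp12 and Mybbp1a fell with Myc in the second, genes named after their values were seen. The plot by library shows this spread.

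**Figure D2:**
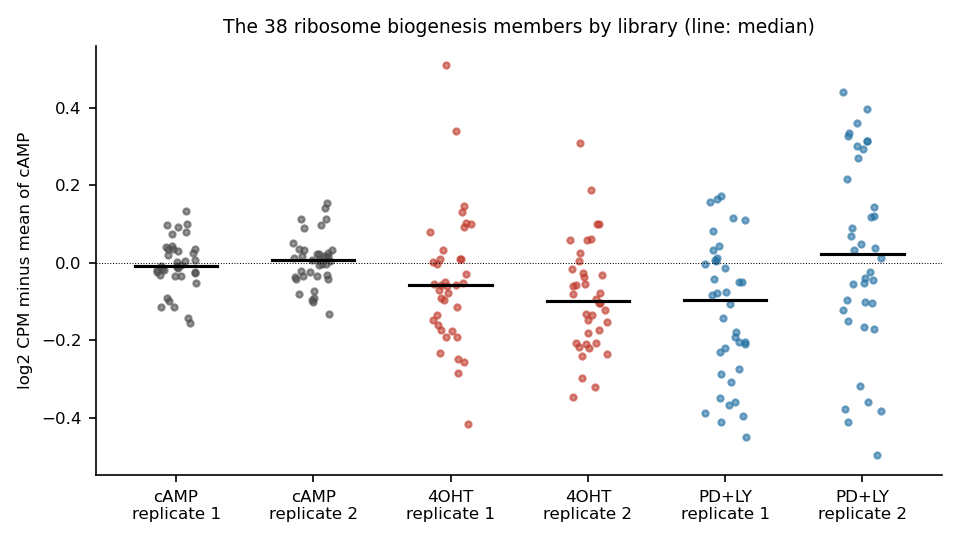
Each of the 38 ribosome biogenesis members as log2 CPM minus its mean in the cAMP libraries, by library. Points are genes and lines are medians; both 4OHT medians lie below 0, and the PD+LY medians are -0.10 and 0.02.

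Relative to the cAMP group, 1 member rose (Mycn) and 7 fell under PD+LY, while 12.1% of tested genes rose and 13.7% fell. Myc alone passed both thresholds, against 9.24% of tested genes. The 7 that fell were Myc, Npm1, Dkc1, Rrn3, Utp20, Heatr1 and Gnl3, all but Myc by less than 0.46 on the log2 scale. The median was -0.06, against 0.005 for all tested genes. The PD+LY libraries lay above both cAMP libraries for 7 members and below them for 16, compared with 4609 and 4763 of all tested genes (25.7% were called in either direction). The comparisons share libraries, since the 4OHT libraries stand against both other groups and so do the cAMP libraries.

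**Figure D3:**
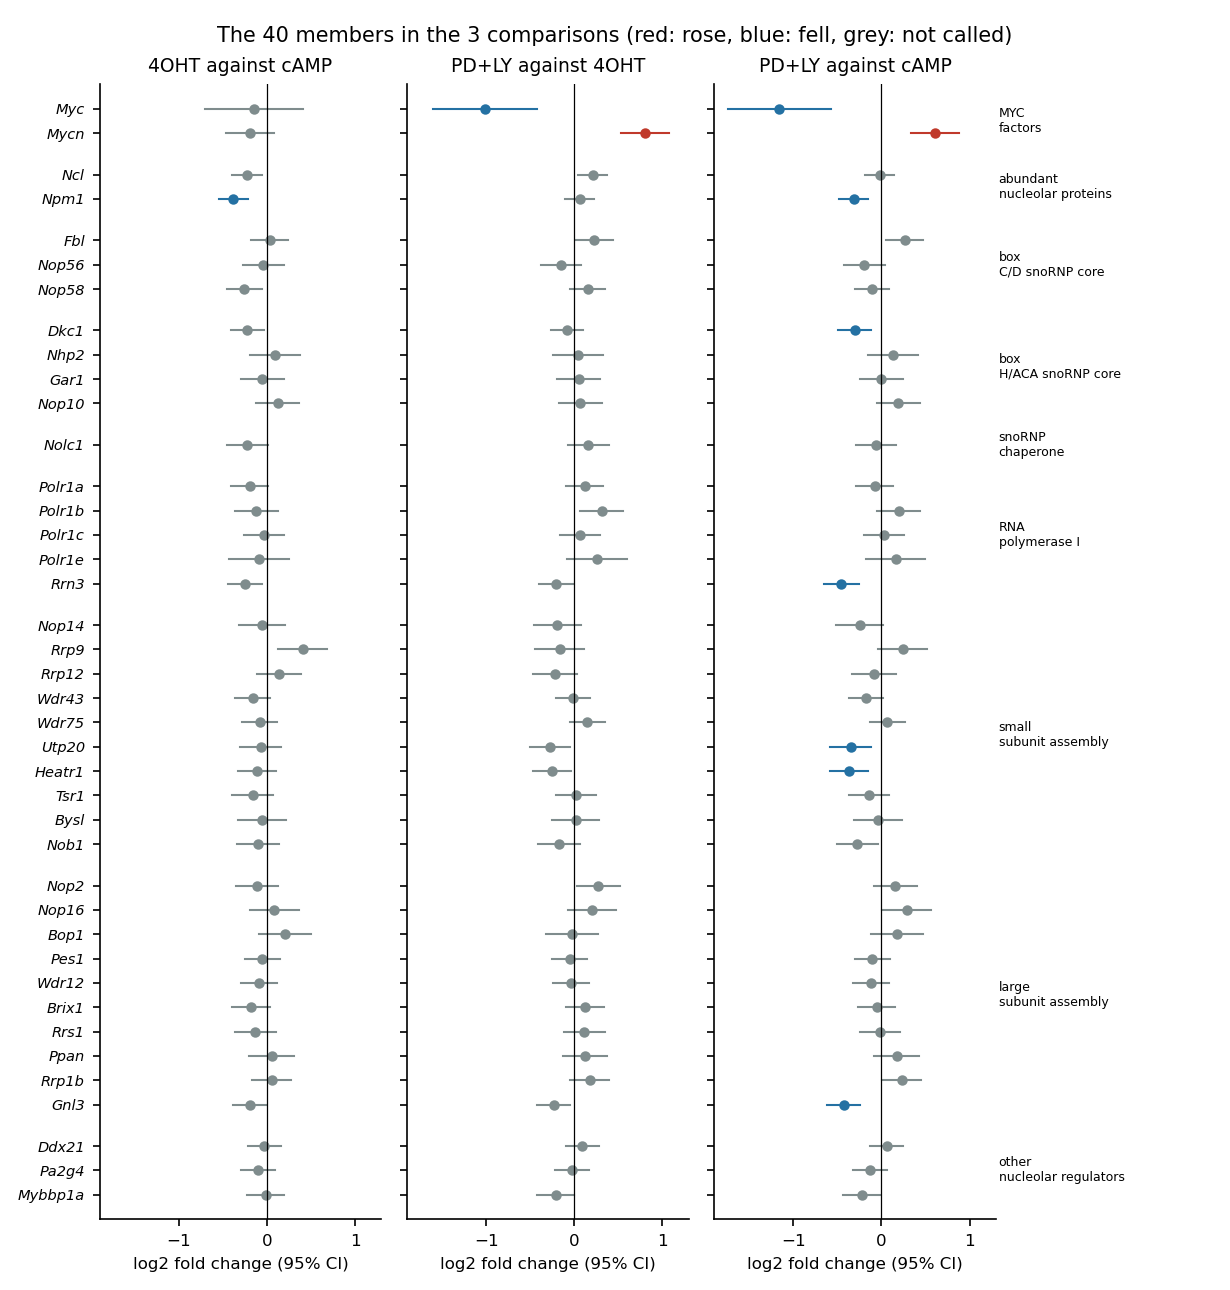
Log2 fold change of the 40 members with 95% intervals in the 3 comparisons, grouped by role; red marks genes that rose, blue genes that fell and grey genes not called. Myc and Mycn stand apart under PD+LY, and the other 38 lie between -0.28 and 0.31 in PD+LY against 4OHT.

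The proteins of the box C/D snoRNPs, which guide methylation of ribosomal RNA, gave no call in any comparison with edgeR or DESeq2, and 1 of the 3 had an unadjusted p under 0.05 in each. Beside the calls of this and the following roles stand the shares of all tested genes that edgeR called, 8.39%, 22.7% and 25.7%. At an unadjusted p under 0.05 these shares were 24%, 36.8% and 38.1%. Fbl, fibrillarin, the methyltransferase of the particle, had 246.6 and 249.5 CPM in cAMP, 264.5 and 243.6 in 4OHT, and 276.8 and 318.8 in PD+LY. Both PD+LY libraries were the highest, with a log2 fold change of 0.23 against 4OHT (adjusted p = 0.105) and 0.26 against cAMP (adjusted p = 0.0628). Nop58, which with Nop56 forms the scaffold of the particle, had its largest change with 4OHT (-0.26, adjusted p = 0.103), from 258.6 and 246.4 CPM to 221.0 and 202.2. Nop56 differed by -0.15 in PD+LY against 4OHT (adjusted p = 0.325), and its PD+LY libraries, 200.4 and 249.0 CPM, lay apart from each other.

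Of the box H/ACA snoRNP proteins, whose particles convert uridine to pseudouridine, only Dkc1 was called. It fell in PD+LY against cAMP, where 13.7% of all tested genes fell. Dkc1, dyskerin, is the pseudouridine synthase and also part of telomerase. Its levels were 275.7 and 262.7 CPM in cAMP, 228.9 and 232.6 in 4OHT, and 220.7 and 215.9 in PD+LY, in steps that did not overlap. The fall against cAMP (log2 fold change -0.30, SE 0.08, adjusted p = 0.0212) was lost when either cAMP or either 4OHT library was left out (adjusted p-values over libraries left out 0.0177 to 0.160). The small proteins Nhp2, Gar1 and Nop10 changed by between -0.05 and 0.12 with 4OHT and between 0.04 and 0.07 with the inhibitors, none of which passed the test. Nolc1, a chaperone of both kinds of snoRNP, measured 247.1 and 253.4 CPM in cAMP, 225.9 and 203.5 in 4OHT, and 217.1 and 262.7 in PD+LY, with no call.

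For RNA polymerase I, which transcribes the ribosomal RNA genes, the single call was Rrn3 in PD+LY against cAMP, where 13.7% of all tested genes fell. Rrn3 encodes the initiation factor TIF-IA, known as the point at which growth signals, ERK among them, reach the polymerase. It had 196.7 and 191.1 CPM in cAMP, 159.2 and 166.8 in 4OHT, and 145.8 and 137.3 in PD+LY. The groups descended without overlap, by -0.25 with 4OHT (adjusted p = 0.109), by -0.20 with the inhibitors (adjusted p = 0.121) and by -0.45 from cAMP to PD+LY (SE 0.09, adjusted p = 0.00317). The last call held with every library left out in turn (adjusted p 0.00177 to 0.0307). Rrn3 is also the gene whose promoter window holds 2 E-boxes.

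The polymerase subunits did not follow Rrn3. Polr1c, shared with RNA polymerase III and the most abundant of the 5 in CPM, had 177.0 and 202.7 CPM in cAMP, 182.9 and 187.4 in 4OHT, and 179.7 and 209.3 in PD+LY, so the groups overlapped. Polr1b, the second largest subunit, changed most with the inhibitors, from 75.1 and 63.8 CPM in 4OHT to 81.7 and 90.8 in PD+LY (log2 fold change 0.31, SE 0.11, adjusted p = 0.0641). Polr1a, the largest subunit, and Polr1e differed by 0.12 and 0.26 in the same comparison, neither of them called.

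Among the 10 small subunit genes, Utp20 and Heatr1 fell in PD+LY against cAMP, where 13.7% of all tested genes fell. In PD+LY against 4OHT, 7 of the 10 were below 0 with none called. Utp20, a large scaffold protein of the small subunit processome, had 141.7 and 117.8 CPM in cAMP, 124.4 and 122.3 in 4OHT, and 104.3 and 99.4 in PD+LY. The PD+LY libraries were the lowest, and the fall against cAMP was 0.35 on the log2 scale (log2 fold change -0.35, adjusted p = 0.0300). Its call was lost in 4 of 6 fits that left out a library, with adjusted p-values from 0.0247 to 0.318. Heatr1, the processome protein UTP10, went from 159.8 and 139.7 CPM in cAMP to 143.6 and 132.5 in 4OHT and 117.4 and 114.7 in PD+LY (-0.37 against cAMP, adjusted p = 0.0179), and lost its call without cAMP replicate 1 (adjusted p = 0.189, range over libraries left out 0.0190 to 0.189).

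Rrp9, a protein of the U3 snoRNP, showed the largest rise with 4OHT of all members. It had 83.9 and 98.3 CPM in cAMP, 129.4 and 112.6 in 4OHT, and 96.2 and 119.5 in PD+LY. Both 4OHT libraries were above both cAMP libraries, and the log2 fold change of 0.41 (SE 0.13, 95% interval 0.13 to 0.69) did not pass the test (adjusted p = 0.0720). Wdr43, the most abundant of the 10 in CPM and a processome protein, had 198.7 and 203.6 CPM in cAMP, 188.7 and 170.8 in 4OHT, and 177.6 and 178.6 in PD+LY, with no call. Tsr1 and Bysl, which act on late precursors of the small subunit, share 1240 and 361 exon bases with genes on the other strand, Srr and Ccnd3. Because reads were counted without strand, reads in the shared bases cannot be told apart, and may be mixed or left out.

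Of the 10 large subunit genes, Gnl3 was the only one called, in PD+LY against cAMP, where 13.7% of all tested genes fell. Gnl3, nucleostemin, is a GTP-binding nucleolar protein known from stem cells and tumour cells. Its levels were 225.5 and 227.1 CPM in cAMP, 200.5 and 194.3 in 4OHT, and 165.8 and 170.1 in PD+LY. The 3 groups did not overlap, and the difference between PD+LY and cAMP (log2 fold change -0.43, SE 0.09, adjusted p = 0.00341) was called with every library left out in turn (adjusted p 0.00353 to 0.0336). The step from 4OHT to PD+LY was -0.23 (adjusted p = 0.0703).

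The others of the large subunit group moved less or the other way. Nop2, an RNA methyltransferase and the other gene with an E-box before its start, had 137.8 and 137.1 CPM in cAMP, 130.3 and 124.0 in 4OHT, and 136.1 and 171.0 in PD+LY. Its difference of 0.27 in PD+LY against 4OHT did not pass the test (adjusted p = 0.0984). Pes1, Bop1 and Wdr12 form the PeBoW complex, which is needed for ribosomal RNA processing. They differed by -0.05, -0.03 and -0.03 in PD+LY against 4OHT, and by -0.05, 0.20 and -0.09 in 4OHT against cAMP, with no call. The 7 members with an E-box anywhere in the promoter ranged from -0.28 to 0.27 in PD+LY against 4OHT. None of them was called there, beside 22.7% of all tested genes. In PD+LY against cAMP they ranged from -0.45 to 0.16 with 2 called, Rrn3 and Utp20, beside 25.7% of all tested genes. The 6 members without a promoter entry, Npm1 among them, could not be counted.

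**Figure D4:**
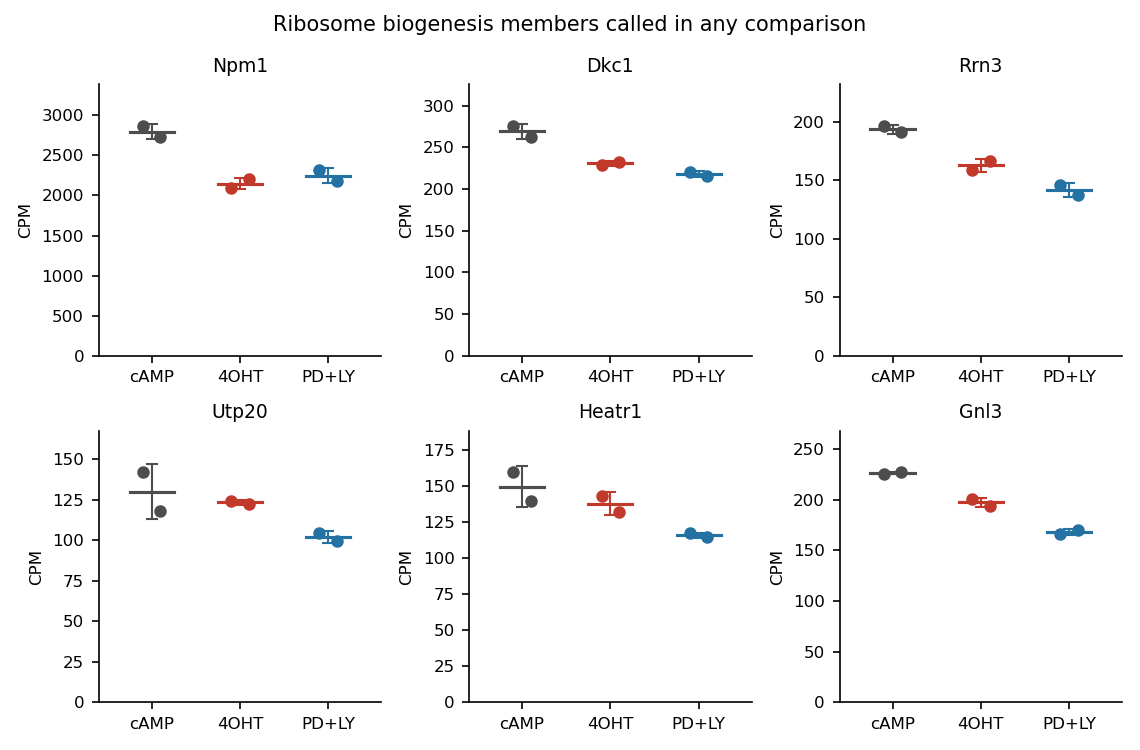
CPM of the 6 ribosome biogenesis members called in any comparison, by group. Points are libraries, the line is the mean and the bars are ± SD (n = 2); all 6 are lowest in PD+LY except Npm1, which is low in 4OHT and in PD+LY.

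The other nucleolar regulators were abundant and gave no call with edgeR or DESeq2, with 0, 0 and 1 of 3 at an unadjusted p under 0.05 in the 3 comparisons. Mybbp1a, a nucleolar protein that binds transcription factors, had 556.6 and 565.5 CPM in cAMP, 564.6 and 547.2 in 4OHT, and 435.3 and 525.1 in PD+LY. Both PD+LY libraries were below the others, with a log2 fold change of -0.21 against 4OHT (95% interval -0.42 to 0.00045, adjusted p = 0.137). Pa2g4, an ErbB3-binding protein of the nucleolus, differed by -0.10 with 4OHT and -0.02 with the inhibitors. Ddx21, an RNA helicase, differed by -0.03 and 0.09.

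How well the counts separate members from their copies differs. Annotated pseudogene sequences at least 90% identical over at least 100 bases were found for 18 of the 40 members. They were most frequent for Nop58 (23), Polr1b (16), Wdr12 (16), Dkc1 (9), Rrp1b (9) and Npm1 (8). Whether these copies are expressed was not examined. The genes of 23 snoRNAs lie inside 8 members, 5 of them in Nop56 and 4 in Nop58. In all, 16 members share exon bases with a gene on the other strand. Values of these genes carry that uncertainty.

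Partners and regulators of MYC proteins were read beside the members. Of 17 tested, edgeR called 2 up and 0 down after 4OHT, beside 8.39% of all tested genes. After the inhibitors it called 4 up and 2 down relative to 4OHT, beside 22.7%. Relative to cAMP it called 3 up and 2 down, beside 25.7%. With a library left out, 0 to 3 were called up after 4OHT, 1 to 3 up and 2 to 4 down after the inhibitors relative to 4OHT, and 0 to 4 up and 0 to 3 down relative to cAMP (0 in both directions without cAMP replicate 1). Mycl, the third MYC family gene, had 28.2 and 34.7 CPM in cAMP, 24.2 and 24.8 in 4OHT, and 45.4 and 54.3 in PD+LY. It rose by 1.03 on the log2 scale against 4OHT (adjusted p = 0.000504) and by 0.66 against cAMP (adjusted p = 0.00505). Thus Mycn and Mycl were both higher, and Myc lower, in both PD+LY libraries than in any other library. Mxd1, whose protein competes with MYC for MAX, showed the reverse of Mycl. It went from 15.4 and 14.4 CPM in cAMP to 22.3 and 30.1 in 4OHT (0.82, adjusted p = 0.0137) and back to 13.8 and 12.0 under the inhibitors (log2 fold change -1.03 from 4OHT, adjusted p = 0.00150).

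Further partners were also called. Max, the dimer partner, was 0.31 higher in PD+LY than in 4OHT on the log2 scale (adjusted p = 0.0461). Mlxipl, a glucose-responsive factor that pairs with MLX, fell in the same comparison (-1.18, adjusted p = 0.00158). Fbxw7 and Skp2, whose proteins mark MYC for breakdown, rose by 0.40 (adjusted p = 0.0411) and 0.41 (adjusted p = 0.0156). Pim1, a kinase that cooperates with MYC, rose with 4OHT (0.38, adjusted p = 0.0208) and was still above cAMP in PD+LY (0.29, adjusted p = 0.0293). Against cAMP, Mxi1 rose by 0.32 (adjusted p = 0.0389), while Mlxip and Aurka fell (-0.37 and -0.34, adjusted p = 0.0150 and 0.0300). Of the calls in this list, those of Mycl, Mxd1 and Mlxipl in PD+LY against 4OHT held with every library left out in turn, and each of the others was lost in at least 1 such fit.

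Of 18 other well known MYC target genes, edgeR and DESeq2 called 0 with 4OHT (1 at an unadjusted p under 0.05). There edgeR called 8.39% of all tested genes (24% at an unadjusted p under 0.05). The inhibitors gave 1 edgeR call up and 2 down relative to 4OHT, beside 22.7% of all tested genes. Relative to cAMP they gave 2 up and 2 down, beside 25.7%. The medians of the 18 genes were -0.004, -0.02 and -0.02. Ppat, the first enzyme of purine synthesis, rose by 0.52 (adjusted p = 0.00298), while the transferrin receptor gene Tfrc fell (-0.60, adjusted p = 0.0272) and so did Impdh1 (-0.44, adjusted p = 0.0109). Against cAMP, Ppat and Cad, both of nucleotide synthesis, rose (0.55 and 0.36, adjusted p = 0.00168 and 0.0248), and Tfrc and Gart fell (-0.77 and -0.31, adjusted p = 0.00674 and 0.0281). The calls of Ppat and Tfrc against cAMP held with every library left out in turn, and the others in this list did not. In this list 52.9% of the genes with a promoter entry held CACGTG before the start.

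Calls were also few among the further ribosome biogenesis genes, beside 8.39%, 22.7% and 25.7% of all tested genes called in the 3 comparisons. Of 92 others for the small subunit, the large subunit and RNA polymerase I, 0 were called up and 2 down after 4OHT. The inhibitors gave 2 calls up and 3 down relative to 4OHT, and 2 up and 6 down relative to cAMP. Their medians, -0.05, 0.04 and -0.03, had the signs of the members' medians. Imp4, a U3 snoRNP protein, fell with 4OHT (-0.44, adjusted p = 0.0414) and rose with the inhibitors (0.36, adjusted p = 0.0456). Utp14a fell with 4OHT (-0.37, adjusted p = 0.0374) and lay below cAMP in PD+LY (-0.40, adjusted p = 0.0105). Utp4 rose in PD+LY (by 0.38 over 4OHT with adjusted p = 0.0274, by 0.35 over cAMP with adjusted p = 0.0342), whereas Bms1, Ngdn and Urb1 fell against 4OHT (-0.32, -0.39 and -0.38, adjusted p = 0.0286, 0.0324 and 0.0333).

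Against cAMP, Snu13, which is part of the box C/D snoRNPs, rose in PD+LY (0.39, adjusted p = 0.0128), while the assembly factors Nat10, Ddx47, Bms1, Ddx56 and Rrp1 fell by 0.33 to 0.39 on the log2 scale. None of the 11 other RNA polymerase I genes was called in any comparison by edgeR, while 1, 4 and 3 had an unadjusted p under 0.05 in the 3 comparisons and DESeq2 called 1 against cAMP in PD+LY. Their log2 fold changes lay between -0.33 and 0.44 in PD+LY against 4OHT. Of all tested genes, edgeR called 8.39%, 22.7% and 25.7% in the 3 comparisons. Of 22 RNA polymerase III genes, Polr3b rose (0.49, adjusted p = 0.00637) and Crcp fell (-0.50, adjusted p = 0.0176) relative to 4OHT under the inhibitors. Polr3b also rose against cAMP (0.59, adjusted p = 0.00160), where Polr3g fell (-0.40, adjusted p = 0.0351). Of the calls named in this list and in the assembly and polymerase I lists, only that of Polr3b against cAMP held with every library left out in turn.

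**Figure D5:**
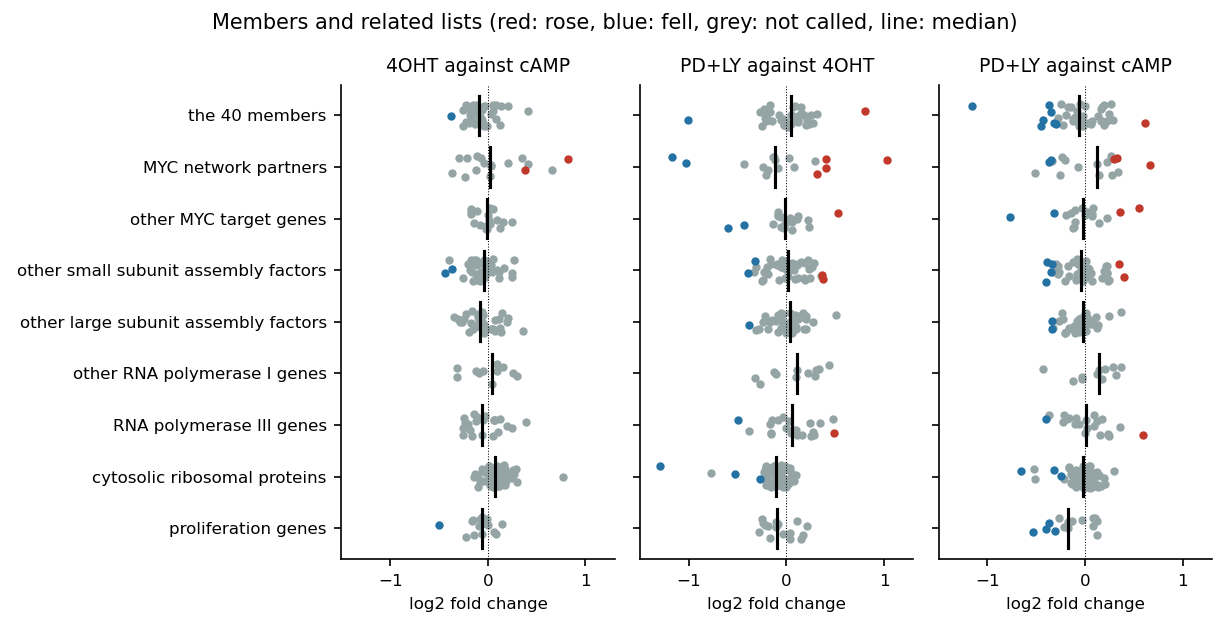
Log2 fold change of the 40 members and of genes in 8 related lists, by comparison. Points are genes, lines are medians, red marks rose, blue fell and grey not called; the lists centre near 0, with ribosomal proteins mostly above 0 in 4OHT against cAMP and mostly below 0 in PD+LY against 4OHT.

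The ribosomal proteins themselves, the products that the assembly factors put together, gave few calls beside the shares of all tested genes given above. Of 79 tested, edgeR and DESeq2 called 0 with 4OHT (3 at an unadjusted p under 0.05) and edgeR called 3 that fell in PD+LY against 4OHT, Rpl22l1 (-0.53, adjusted p = 0.0445), Rpl41 (-0.27, adjusted p = 0.0487) and Rps27, which had a mean of only 31.3 counts. Of 6 fits that each left out a library, Rpl41 was called in 1 and Rpl22l1 and Rps27 in 3 each. Against cAMP, Rpl10 (-0.32, adjusted p = 0.0140), Rpl22l1 (-0.66, adjusted p = 0.0151) and Rps9 (-0.25, adjusted p = 0.0472) fell in PD+LY, in 4, 4 and 1 of those fits. Most lay on 1 side of 0 all the same. With 4OHT, 67 of 79 were above 0 (median 0.07), compared with 7585 of 15256 tested genes, and in PD+LY against 4OHT, 66 of 79 were below 0 (median -0.11), compared with 7504. Their median relative to the cAMP mean was -0.03 and 0.03 in the cAMP libraries, 0.08 and 0.06 in 4OHT, and -0.07 and 0.02 in PD+LY, so the PD+LY libraries again lay apart, and with a library left out, the number that fell against 4OHT ranged from 0 (without 4OHT replicate 1) to 12 (without PD+LY replicate 2). Pseudogenes limit these values: 79 of 81 ribosomal protein genes have a similar pseudogene transcript, and Rpl26 has 0 counts in all libraries.

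Other gene groups moved with the same libraries. Beside their counts stand the 8.39%, 22.7% and 25.7% of all tested genes that edgeR called in the 3 comparisons. Of 10 ERK response genes, 9 fell in PD+LY against 4OHT (median -2.89), among them Spry4 (-6.33), Etv4 (-6.18) and Dusp4 (-3.92), a check of the inhibitor labels. With 4OHT, 1 of the 10 rose, Etv4 (0.80, adjusted p = 0.00640), 2 fell, Dusp6 (-0.72, adjusted p = 0.00489) and Etv5 (-0.54, adjusted p = 0.00467), and the median was -0.04. Their summed share was 0.082% and 0.078% of counts in cAMP and 0.061% and 0.062% in 4OHT. Of the fits that left out a library, 4 called Dusp6, 3 Etv4 and 3 Etv5. Of 16 proliferation genes, 1 fell with 4OHT (Bub1), edgeR and DESeq2 called 0 in PD+LY against 4OHT (4 at an unadjusted p under 0.05), and Mki67, Top2a, Mcm5 and Bub1 fell in PD+LY against cAMP. These 16 summed to 0.560% and 0.552% of counts in cAMP, 0.527% and 0.525% in 4OHT, and 0.50% and 0.523% in PD+LY. Their part in the lower levels of Npm1, Dkc1, Rrn3, Utp20, Heatr1 and Gnl3 was not tested.

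Markers of other cell types also differed in level between libraries. The 8 thyroid markers, all detected in every library, summed to 0.163% and 0.110% of counts in cAMP, 0.057% and 0.076% in 4OHT, and 0.199% and 0.098% in PD+LY. The 10 mesenchymal markers went from 0.120% and 0.131% in cAMP to 0.227% and 0.238% in 4OHT and 0.488% and 0.410% in PD+LY, and their members moved in both directions. With 4OHT, 4 rose and 0 fell (5 and 0 at an unadjusted p under 0.05 and by DESeq2), and in PD+LY against 4OHT, 4 rose and 3 fell. The collagens Col1a1, Col1a2 and Col3a1 rose in both comparisons, while Pdgfrb (-1.26), Thy1 (-0.66) and Twist1 (-1.03) fell in the second. The 7 epithelial markers summed to 0.099% and 0.107%, 0.075% and 0.083%, and 0.074% and 0.077%. Their median log2 level relative to the cAMP mean was -0.52 and -0.40 in 4OHT and -1.24 and -1.01 in PD+LY. DESeq2 called 0 of them up and 3 down with 4OHT, 1 up and 5 down in PD+LY against 4OHT, and 0 up and 6 down against cAMP. Endothelial markers (9 genes, of which 8 had at least 3 counts in every library) took 0.022% to 0.026% of counts, but Kdr, Cdh5 and Tie1 fell and Pecam1 rose with 4OHT, Esam and Plvap fell in PD+LY against 4OHT, and 5 of the 8 tested fell in PD+LY against cAMP. Their median relative to the cAMP mean was -0.63 and -0.52 in 4OHT and -0.85 and -1.21 in PD+LY. Macrophage markers (6 genes) took 0.0064% and 0.0068% of counts in cAMP, 0.0058% and 0.0063% in 4OHT, and 0.0032% and 0.0034% in PD+LY. Ptprc and Adgre1 were at 0 in all libraries, and Cd68 fell in PD+LY against 4OHT and against cAMP. The part of these shifts in the members' levels was not tested.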

How the data were processed

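Stranded mRNA libraries were made from the 6 samples. The authors trimmed reads (Trimmomatic), mapped them on mm10 (HISAT2), summed them by gene (HTSeq) and deposited the raw counts per gene symbol. Per the study's methods reads were counted without strand, and tool versions and the annotation are not given in the sources used here. Unstranded counting mixes genes that overlap on opposite strands, and reads that match pseudogenes can be lost. No other values were used, and 0 columns were left unmapped.

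From the deposited counts, genes were filtered with filterByExpr (minimum count 10, total 15), which kept 15256 of 25239 genes, scaled with TMM factors and tested with edgeR 4.0.16 (quasi-likelihood, R 4.3.3) in a single fit of 3 groups. SE is the log2 fold change divided by the square root of F. Library totals were 14898409 to 20637959 counts. The common biological coefficient of variation, estimated from the spread between libraries of a group, was 0.105. The test was checked on simulated counts. Alternatives were RLE, upper quartile and library total scaling, 2 other filters, DESeq2 1.42.0, fits on the 2 groups compared, a replicate block, and leaving out each library.

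Lengths, positions and overlaps came from GENCODE M21 (GRCm38), promoters from RefSeq, and pseudogene matches from BLAST+ 2.17.0 over 13607 pseudogene transcripts. The members, their roles and all lists were chosen with earlier results of these data known. Myc and Mycn, members past both thresholds, and in each role the member with the highest mean CPM and those with the largest change in PD+LY against 4OHT and in 4OHT against cAMP are named with values. Of each related list, the 3 largest changes per direction among called genes averaging 50 counts or more are named. Heatr1, Gnl3 and others beyond this rule were added after their values were seen.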

Additional observations from a re-analysis of the deposited data

How the results depend on the processing

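With 2 libraries per group, many calls rest on single libraries. In 4OHT against cAMP, 1 member rose with no filter, with DESeq2, with only the 2 groups fitted and with the replicate block, and 2 fell with no filter, 4 with only the 2 groups and 3 with the replicate block. Calls over all genes moved too, from 4.04% up and 4.35% down to 5.15% and 5.97% with no filter, 7.58% and 7.95% with only the 2 groups, and 7.41% and 8.14% with the block. In PD+LY against 4OHT, 3 fell with upper quartile factors and 4 with the replicate block. With no filter 4 rose, and 4 rose with the block. Of all genes, 13.8% fell with upper quartile factors, 11.2% rose with no filter, and 15.4% rose and 15.7% fell with the block. In PD+LY against cAMP, 2 rose with no filter and 2 with the replicate block. The number that fell was 7 as reported, 5 with only the 2 groups fitted and 10 with the block. There, 11.3% of all genes rose with no filter and 11.3% fell with only the 2 groups. With the block, 15.9% of all genes rose and 17.3% fell. The shared replicate numbers were not taken as pairs: nothing in the labels ties them, and replicate 1 deviations correlated by 0.096 (cAMP and 4OHT), 0.283 (cAMP and PD+LY) and 0.076 (4OHT and PD+LY), over the 0.1 required of every pair in 1 of 3. The cause of these shifts was not tested.

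With a library left out, 0 to 1 members rose and 0 to 4 fell between cAMP and 4OHT, where 0.707% to 7.09% of all tested genes rose and 0.668% to 7.77% fell. Between 4OHT and PD+LY, 1 to 7 rose, 0 to 5 fell, 0 to 1 passed both thresholds and the median was -0.048 to 0.10, while 3.02% to 13.3% of all tested genes rose and 4.59% to 13.3% fell. In PD+LY against cAMP, 1 to 6 rose, 3 to 10 fell, 0 to 1 passed both thresholds and the median was -0.094 to 0.023, while 6.77% to 13.0% of all tested genes rose and 8.18% to 14.5% fell.

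Signs turned only for members not called in the comparison. With upper quartile factors, Tsr1 (-0.016) and Bysl (-0.023) fell below 0 in PD+LY against 4OHT. Gar1 in PD+LY against cAMP, -0.00027 as reported, was 0.00077 with RLE, 0.0093 with library totals, 0.0085 with no filter, 0.00090 with DESeq2, 0.0060 with only the 2 groups and 0.00040 with the replicate block. The log2 fold changes whose sign turned without a library ranged, for 4OHT relative to cAMP, from -0.35 to 0.026 (Myc), -0.023 to 0.10 (Fbl), -0.059 to 0.26 (Nhp2), -0.12 to 0.021 (Gar1), -0.13 to 0.070 (Polr1c), -0.23 to 0.062 (Polr1e), -0.17 to 0.068 (Nop14), -0.20 to 0.065 (Utp20), -0.12 to 0.010 (Bysl), -0.040 to 0.15 (Rrp1b), -0.056 to 0.0038 (Ddx21) and -0.033 to 0.011 (Mybbp1a). In PD+LY against 4OHT they were -0.14 to 0.20 (Nhp2), -0.042 to 0.18 (Polr1c), -0.079 to 0.064 (Wdr43), -0.066 to 0.11 (Tsr1), -0.16 to 0.18 (Bysl), -0.20 to 0.13 (Bop1), -0.14 to 0.031 (Pes1), -0.054 to 0.27 (Ppan) and -0.10 to 0.051 (Pa2g4). In PD+LY against cAMP they were -0.076 to 0.038 (Ncl), -0.050 to 0.30 (Nhp2), -0.064 to 0.074 (Gar1), -0.20 to 0.071 (Nolc1), -0.14 to 0.0065 (Polr1a), -0.078 to 0.14 (Polr1c), -0.21 to 0.034 (Rrp12), -0.22 to 0.12 (Bysl), -0.012 to 0.32 (Nop2), -0.15 to 0.036 (Brix1), -0.051 to 0.023 (Rrs1) and -0.00099 to 0.33 (Ppan). Myc, at 44 to 126 counts a library, is the member that depth limits most.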
